A study of Mus musculus with 16 samples.

Results

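The genes described here drive a cell from G1, the phase before DNA synthesis, into S phase: the D cyclins Ccnd1, Ccnd2 and Ccnd3, the E cyclins Ccne1 and Ccne2, the cyclin-dependent kinases Cdk2, Cdk4 and Cdk6, the transcription factor E2f1 and the retinoblastoma gene Rb1. They were chosen by symbol, and each was read from the probe sets annotated to that symbol alone, of which there were 29 among 34945 probe sets with a single gene. The probe set with the highest mean over 16 arrays stood for its gene. Of the 10 genes, 9 passed a filter on low signals and were tested among 13575 genes, and Ccne2 did not pass it.

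D cyclins bind CDK4 or CDK6 when mitogens act on a cell, and the complexes phosphorylate the RB protein. RB then releases E2F factors, which switch on the E cyclins and the genes of DNA replication, and cyclin E with CDK2 completes the phosphorylation of RB. In the liver, hepatocytes rest outside the cycle until tissue is lost, and cyclin D1 is the member best known for carrying them through G1 after hepatectomy.

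Liver RNA of mice was hybridised to 16 expression arrays, with 1 array per arm and day, from 4 arms at days 0, 2, 7 and 14 after partial hepatectomy, an operation that removes part of the liver. All mice had the 129SV/C57BL/6 background and the genotype Metff/ff:ERCre+/+, a Met gene flanked by recombination sites together with a recombinase that tamoxifen activates. MET_FLOX was the arm with Met left in place and no drug. In MET_KO, exon 16 of Met had been deleted; MET is the receptor that binds hepatocyte growth factor. MET_FLOX_canertinib and MET_KO_canertinib were the same genotypes fed canertinib, which blocks the kinases of EGFR and its relatives, at an intended 80 mg/kg. The labels do not state the age of the mice, the cells in which the recombinase was active, whether MET_FLOX mice received tamoxifen, or how many animals an array stands for. The question addressed was how loss of signalling through MET, EGFR or both alters the regenerating liver.

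The values are MAS5 signals, a linear measure of brightness per probe set, and cannot be compared between genes, since each probe set binds with its own strength. Differences are on the scale of log2(signal + 16), which understates changes of dim probe sets, and a gene is said to have risen or fallen only where its Benjamini-Hochberg adjusted p over all genes tested was below 0.05 in limma. With 1 array for an arm at a day, p-values measure what spread is left after arm and day are fitted, and no comparison has a replicate of the same arm and day. In whole tissue, fewer cells of a type cannot be told apart from less RNA per cell.

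Array medians fell into separate sets that no label names. The 6 arrays of MET_FLOX and MET_KO at days 0, 2 and 7 had medians of 156.4 to 188.7, and the other 10 had medians of 244 to 265.1. The ratio of the 3′ to the 5′ Gapdh control signal, a sign of RNA quality, was 0.765 to 0.869 without canertinib and 0.950 to 2.24 with it. Liver markers were strong, with 6 hepatocyte genes summing to between 131907 and 495166 over the arrays, and 6 lymphocyte markers summed to 1287 to 1884 in the low set and 3348 to 4862 in the high set. The Met probe sets were not used to check the deletion, because the sources used here do not place them relative to exon 16.

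**Figure D1:**
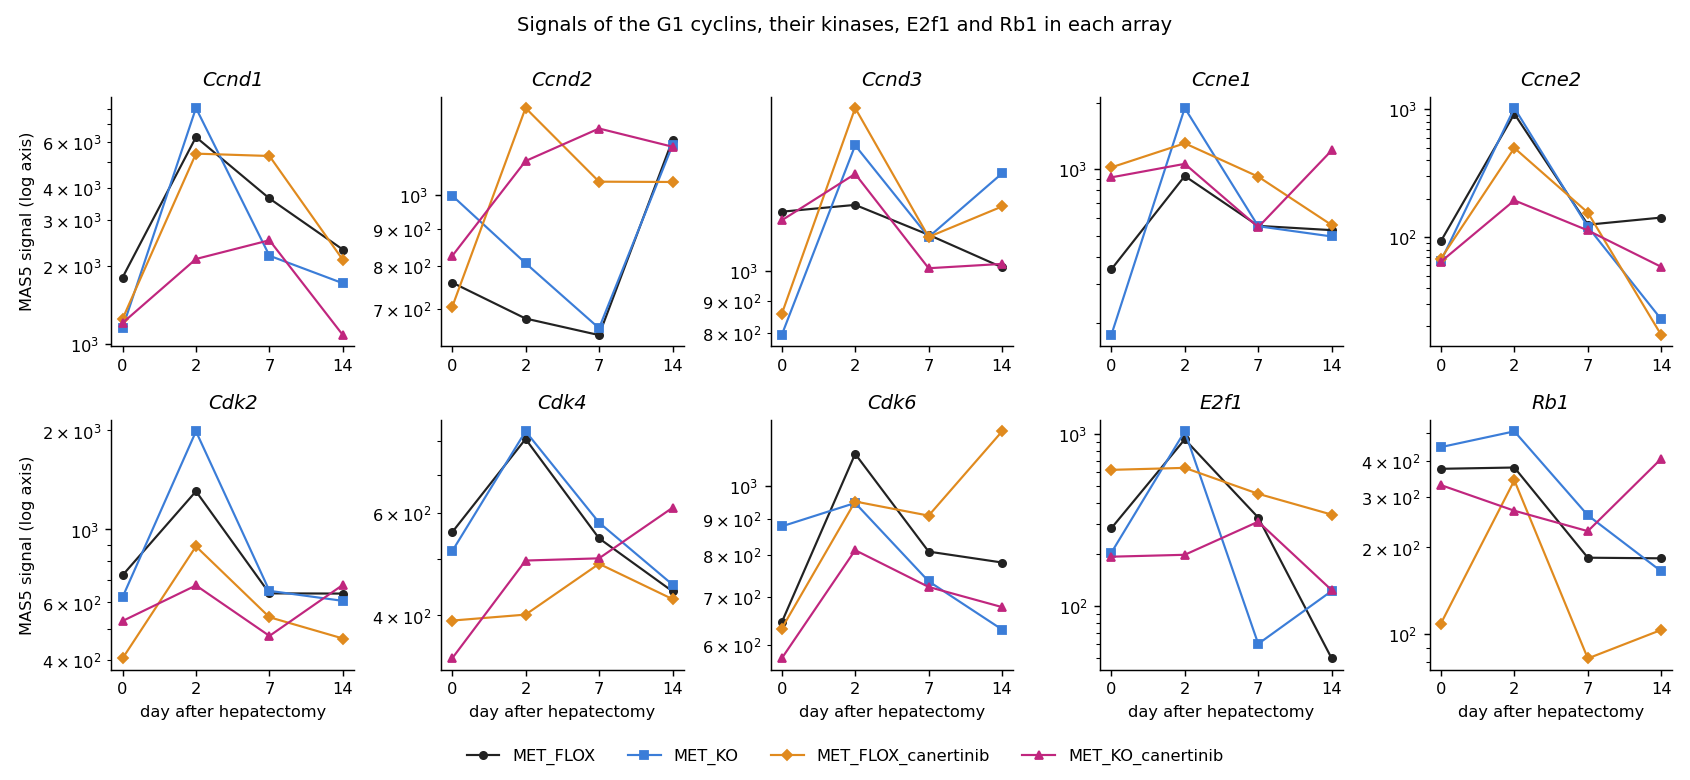
MAS5 signal (log axis, a separate scale for each gene) of the 10 genes against day after hepatectomy (equally spaced), with a line for each arm and a point for each array. Ccne2 was highest at day 2 in every arm, and Ccnd1 and Cdk2 were so in every arm other than MET_KO_canertinib. At day 2 in MET_KO_canertinib, Ccnd1, Ccne2 and Cdk2 reached 2124, 194 and 676. Ccnd2 stayed between 645 and 1312 with no shared course.

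Cyclin D1 rose at day 2 over the 4 arms, and it was the only one of the 9 tested genes called in that comparison. Ccnd1 gave signals of 1802, 6256, 3632 and 2308 in the days 0, 2, 7 and 14 of MET_FLOX and of 1152, 8099, 2187 and 1713 in MET_KO. The canertinib arms gave 1249, 5404, 5293 and 2107 in MET_FLOX_canertinib, and in MET_KO_canertinib 1205, 2124, 2508 and 1082. All 4 arrays of day 2 lay above all 4 of day 0, and the day 2 array of MET_KO_canertinib was far below the other 3. The log2 difference of day 2 from day 0 was 1.87 (SE 0.28, limma adjusted p = 0.0127). In this comparison 0.413% of all genes were called and their median difference was -0.06.

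The call for Ccnd1 was lost when 1 of 6 arrays was left out. These were the day 0 and the day 2 arrays of MET_FLOX, MET_KO and MET_FLOX_canertinib, without which the adjusted p lay between 0.0511 and 0.0781. The estimate stayed between 1.55 and 2.15 over the 16 fits that each left out 1 array.

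In the order of the 16 Ccnd1 levels, the 3 highest were day 2 arrays, those of MET_KO, MET_FLOX and MET_FLOX_canertinib. The day 7 array of MET_FLOX_canertinib followed at 5293, next to the 5404 of the same arm at day 2. That step is between single arrays, and its spread cannot be estimated. Below it came MET_FLOX at day 7, and the day 2 array of MET_KO_canertinib ranked 9, between MET_KO at day 7 (2187) and MET_FLOX_canertinib at day 14 (2107). The lowest array was MET_KO_canertinib at day 14 with 1082. Thus Ccnd1 was still near its day 2 level at day 7 in MET_FLOX_canertinib. In the other canertinib arm, MET_KO_canertinib, day 7 (2508) also lay no lower than day 2 (2124). Without the drug Ccnd1 stood at 3632 in MET_FLOX and 2187 in MET_KO by day 7, against 6256 and 8099 at day 2. The difference of day 7 from day 0 over the arms was 1.26 (SE 0.28, limma adjusted p = 0.611), a comparison in which 0.00737% of all genes were called.

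The other probe sets of Ccnd1 also stood higher at day 2 than at day 0 in each arm, but the order of the arms differed. Probe set 1417420_at gave 539, 650, 319 and 564 at day 0 in MET_FLOX, MET_KO, MET_FLOX_canertinib and MET_KO_canertinib, and 4996, 4326, 2155 and 977 at day 2. When every probe set of a single gene was fitted by itself with no filter, 0.223% of probe sets were called, and the 3 sets of Ccnd1 differed by 1.87 (adjusted p = 0.0183), 2.34 (adjusted p = 0.0321) and 1.98 (adjusted p = 0.0503). Leaving out 1 array ended the call of 1417420_at in 7 of 16 fits, with adjusted p up to 0.224. Those arrays were the day 0 and day 2 arrays of MET_FLOX, MET_KO and MET_FLOX_canertinib and the day 7 array of MET_FLOX. The third set, 1417419_at, was called in 3 of 16 such fits. Its day 0 signals, in the order of arms given for 1417420_at, were 169, 418, 156 and 279. At day 2 they were 1528, 811, 1255 and 586, with the smallest change in MET_KO.

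Cyclin D2 followed another course. Ccnd2 gave 760, 679, 645 and 1187 at days 0, 2, 7 and 14 in MET_FLOX and 998, 808, 659 and 1168 in MET_KO. Under the drug its signals were 704, 1312, 1042 and 1041 in MET_FLOX_canertinib, and in MET_KO_canertinib 826, 1112, 1231 and 1162. In this probe set day 2 was below day 0 in both arms without the drug and above it in both arms with the drug, a difference that was not tested. Each of the other 3 Ccnd2 sets that passed the filter broke this split: 1434745_at went from 385 to 487 in MET_FLOX, 1430127_a_at from 382 to 314 in MET_FLOX_canertinib and 1448229_s_at from 224 to 134 in MET_KO_canertinib. Neither day 2 minus day 0 (0.21, SE 0.22, limma adjusted p = 0.801) nor day 14 minus day 0 (0.47, SE 0.22, limma adjusted p = 0.303) was called.

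The 4 arrays of day 14 lay between 1041 and 1187 whatever the arm, although MET_FLOX and MET_KO had stood at 645 and 659 at day 7. These courses ran along the array sets, with Ccnd2 at 645 to 998 (median 720) in the low set and 704 to 1312 (median 1137) in the high set. Without the drug the summed lymphocyte markers moved with them, at 1835 and 1671 in MET_FLOX and MET_KO at day 7 and 3812 and 3887 at day 14. With it they followed Ccnd2 less closely. At days 0 and 2 the sums were 4296 and 4548 in MET_FLOX_canertinib, with Ccnd2 at 704 and 1312. In MET_KO_canertinib they were 3348 and 4284, with Ccnd2 at 826 and 1112. Of the 7 lymphocyte markers 6 were measured, and all 6 had a higher mean with canertinib than without. Their part in the Ccnd2 signal was not tested.

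**Figure D2:**
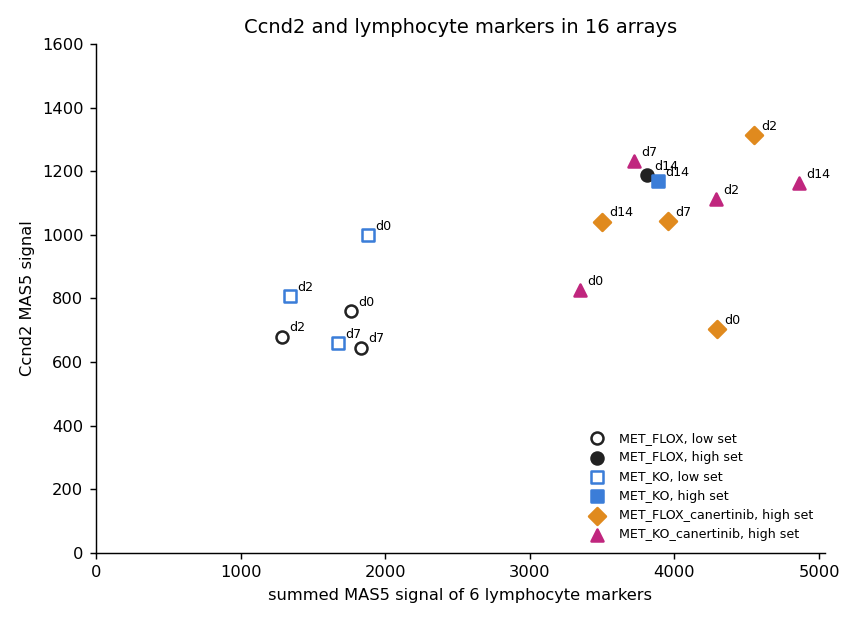
Ccnd2 MAS5 signal (vertical axis) against the summed MAS5 signal of 6 lymphocyte markers (horizontal axis) in the 16 arrays, labelled by day; open symbols are the low array set and filled symbols the high set. The open symbols sit at a summed signal of 1287 to 1884 and the filled ones at 3348 to 4862, with Ccnd2 at 645 to 998 and 704 to 1312.

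In its brightest probe set cyclin D3 was higher at day 2 than at day 0 in 4 of 4 arms without being called. Ccnd3 gave 1239, 1270, 1140 and 1014 at days 0, 2, 7 and 14 in MET_FLOX and 795, 1574, 1131 and 1423 in MET_KO. The arms with canertinib gave 857, 1801, 1132 and 1263 in MET_FLOX_canertinib, and in MET_KO_canertinib 1201, 1420, 1011 and 1027. Day 2 exceeded day 0 by more than 1 on the log2 scale in MET_FLOX_canertinib (1.06) and by nearly as much in MET_KO (0.97), and by 0.03 in MET_FLOX. Over the arms the difference was 0.58 (SE 0.19, limma adjusted p = 0.286). Its other sets, 1438805_at and 1444323_at, did not pass the filter. In the fit of every probe set they differed by -0.57 and -0.69, the opposite direction, and neither was called.

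The E cyclins activate CDK2 at the border of S phase. Ccne1 gave 351, 930, 553 and 529 at days 0, 2, 7 and 14 in MET_FLOX and 177, 1894, 551 and 495 in MET_KO. In MET_FLOX_canertinib it gave 1018, 1310, 924 and 558, and in MET_KO_canertinib 918, 1057, 546 and 1216. Both canertinib arms began high at day 0, so their day 2 changes were 0.36 and 0.20 against 1.37 in MET_FLOX and 3.31 in MET_KO. The day 2 difference of 1.31 was not called (SE 0.41, limma adjusted p = 0.232).

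These values come from 1441910_x_at, whose suffix marks probes that can also bind other transcripts. The other Ccne1 probe set, 1416492_at, gave 329, 231, 306 and 177 at day 0 in MET_FLOX, MET_KO, MET_FLOX_canertinib and MET_KO_canertinib, with neither canertinib arm above both others. At day 2 it gave 558, 1435, 605 and 186, and its difference was 1.08 (SE 0.43, limma adjusted p = 0.487 over all probe sets). The high day 0 level of Ccne1 under canertinib was therefore seen with 1 of its 2 probe sets.

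Ccne2 lay below the array medians in most arrays and stood above them in 3, too few for the filter. It gave 93, 924, 125 and 142 at days 0, 2, 7 and 14 in MET_FLOX and 65, 1026, 120 and 23 in MET_KO. The other arms gave 68, 499, 156 and 17 in MET_FLOX_canertinib, and in MET_KO_canertinib 64, 194, 113 and 58. Day 2 was the highest array in each arm, the day 0 arrays lay between 64 and 93, and the 3 arrays above their medians were those of day 2 in the arms other than MET_KO_canertinib.

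In a fit with no filter, where 0.297% of genes were called, Ccne2 rose by 2.70 (SE 0.49, limma adjusted p = 0.0303). The call was lost in 7 of 16 fits that each left out 1 array: the day 0 and day 2 arrays of MET_FLOX, MET_KO and MET_FLOX_canertinib and the day 0 array of MET_KO_canertinib. Over all 16 such fits the estimate ranged from 2.31 to 3.18 and the adjusted p from 0.00313 to 0.218.

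Cdk2, the partner kinase of the E cyclins, was highest at day 2 in MET_FLOX, MET_KO and MET_FLOX_canertinib. It gave 726, 1307, 639 and 638 at days 0, 2, 7 and 14 in MET_FLOX and 622, 1988, 651 and 607 in MET_KO. The drug-fed arms gave 406, 888, 541 and 466 in MET_FLOX_canertinib, and in MET_KO_canertinib 527, 676, 475 and 679, where days 2 and 14 were alike. The difference of day 2 from day 0 was 0.98 (SE 0.23, limma adjusted p = 0.103). It was called without the day 2 array of MET_KO_canertinib (1.21, adjusted p = 0.0134) and without the day 14 array of that arm (adjusted p = 0.0491).

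Cdk4, which pairs with the D cyclins, gave 556, 806, 543 and 440 at days 0, 2, 7 and 14 in MET_FLOX and 516, 831, 578 and 452 in MET_KO. It gave 392, 401, 491 and 427 in MET_FLOX_canertinib, and in MET_KO_canertinib 337, 498, 502 and 614. In this probe set day 2 was the highest array of both arms without canertinib, and with it day 7 (491 and 502) was no lower than day 2. The day 2 difference over the arms was 0.44 (SE 0.23, limma adjusted p = 0.528). Its other probe sets, 1422440_at and 1422441_x_at, each differed by 0.92 and were not called either. They were also highest at day 2 in a canertinib arm each: 1422441_x_at gave 90, 552, 406 and 281 over the days of MET_FLOX_canertinib, and 1422440_at gave 113, 346, 249 and 259 over those of MET_KO_canertinib.

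Cdk6, the alternative D cyclin kinase, gave 646, 1107, 810 and 782 at days 0, 2, 7 and 14 in MET_FLOX, and 878, 946, 736 and 631 in MET_KO. It gave 633, 950, 908 and 1190 in MET_FLOX_canertinib, and in MET_KO_canertinib 575, 813, 723 and 678. Day 2 was above day 0 in 4 of 4 arms, by 0.11 to 0.76, and the difference of 0.48 was not called (SE 0.20, limma adjusted p = 0.379). Another Cdk6 set that passed the filter, 1460291_at, went from 166 to 158 at day 2 in MET_KO. It was highest at day 7 or day 14 in every arm, as with 131, 228, 511 and 476 over the days of MET_KO_canertinib.

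Cdk2 and Cdk4 varied together over the 16 arrays (Pearson r 0.769, arrays that share arms and days), so their upstream sequences are shown to set them side by side. They are the 250 bases before the RefSeq start of each gene in GRCm38.p6, at chr10:128705052-128705301 on the minus strand for Cdk2 and chr10:127063285-127063534 on the plus strand for Cdk4. Each reads 5′ to 3′ along the gene. Capitals mark an E2F octamer in Cdk2 and the E-box CACGTG, a site for MYC and USF factors, in Cdk4.
Cdk2: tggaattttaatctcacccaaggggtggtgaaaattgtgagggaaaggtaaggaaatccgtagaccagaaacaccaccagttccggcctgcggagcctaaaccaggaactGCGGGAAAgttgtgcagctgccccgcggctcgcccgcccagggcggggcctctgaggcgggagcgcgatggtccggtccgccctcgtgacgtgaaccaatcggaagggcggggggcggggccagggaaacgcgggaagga
Cdk4: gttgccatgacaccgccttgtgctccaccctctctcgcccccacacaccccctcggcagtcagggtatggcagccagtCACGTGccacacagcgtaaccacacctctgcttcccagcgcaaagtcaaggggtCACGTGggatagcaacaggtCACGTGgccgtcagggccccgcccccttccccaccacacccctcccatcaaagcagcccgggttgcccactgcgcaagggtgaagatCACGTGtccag

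The motifs were chosen after these sequences had been seen. The E2F search used TTTCCCGC, TTTCGCGC, TTTGCCGC and TTTGGCGC on both strands, and the E-box reads the same on both. The octamer of Cdk2 begins 140 bases before the start, and 1.86% of the 32851 promoter windows in the RefSeq table hold at least 1 such octamer. The E-boxes of Cdk4 begin 172, 118, 98 and 11 bases before its start, and 7 of the 32851 windows (0.0213%) hold 4 or more, against 6.02% with at least 1. Of the 10 genes 6 matched the table, with 7 windows, and the only other match among them was an E-box of Cdk6. These matches describe letters in the windows, and binding was not measured here.

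E2f1, the activator that RB holds in check, gave a call that turned on the probe set. The brighter set, 1431875_a_at, gave 283, 930, 327 and 50 at days 0, 2, 7 and 14 in MET_FLOX and 204, 1035, 60 and 123 in MET_KO. In MET_FLOX_canertinib it gave 619, 635, 449 and 340 and in MET_KO_canertinib 194, 199, 310 and 124, so that day 2 equalled day 0 within 0.04 on the log2 scale in both. The difference over the arms was 0.997 (SE 0.56, limma adjusted p = 0.579).

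The dimmer set, 1417878_at, did not pass the filter and gave 24, 394, 30 and 50 at days 0, 2, 7 and 14 in MET_FLOX and 23, 452, 24 and 64 in MET_KO. It gave 75, 445, 57 and 36 in MET_FLOX_canertinib, and in MET_KO_canertinib 20, 219, 32 and 40. Here day 2 stood apart in every arm, those with canertinib included. In the fit of every probe set it rose by 3.0 (SE 0.37, adjusted p = 0.0068). That call was lost without the day 2 array of MET_FLOX (adjusted p = 0.0555), of MET_KO (0.0664) or MET_FLOX_canertinib (0.0558) and without the day 0 array of MET_KO (0.055). The third E2f1 set, 1447840_x_at, differed by 0.17 and was not called. The size of the change of the dimmer set depends on the added 16, since its day 0 signals of 20 to 75 are near that value.

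**Figure D3:**
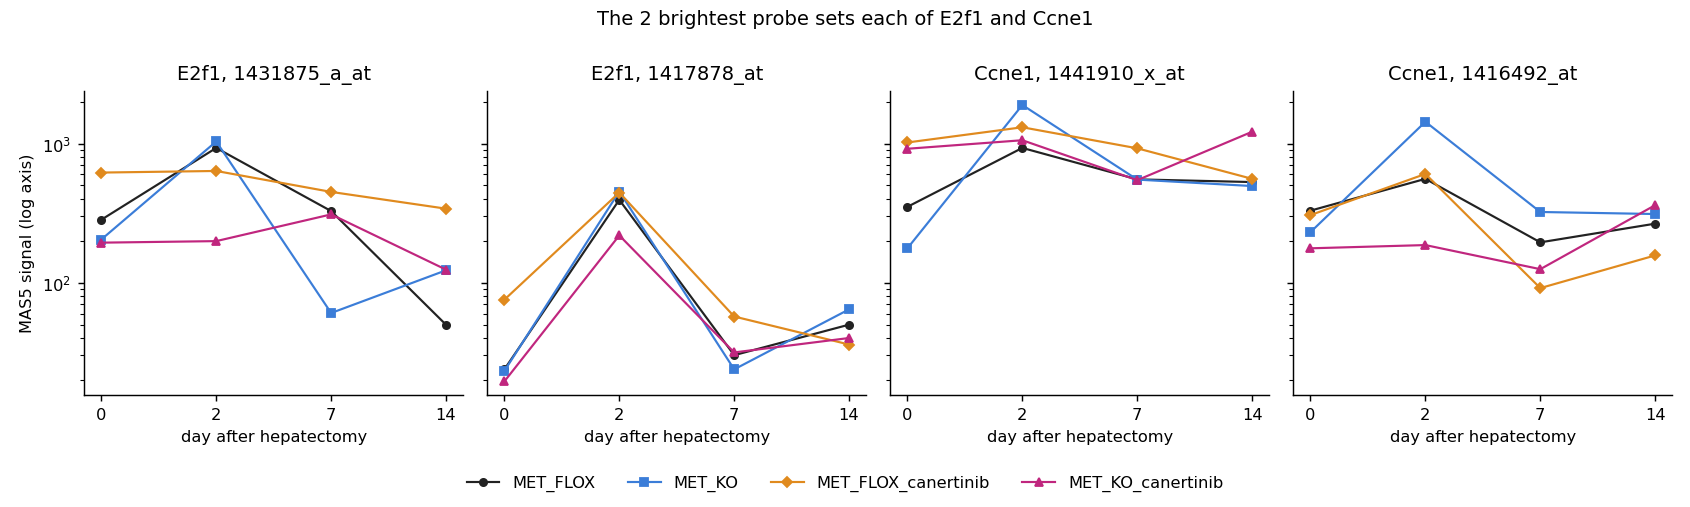
MAS5 signal (log axis) against day after hepatectomy for 2 probe sets of E2f1 and 2 of Ccne1, with a line for each arm and a point for each array. E2f1 set 1417878_at shows day 2 as the highest array of all 4 arms (219 to 452), whereas set 1431875_a_at is level from day 0 to day 2 in the canertinib arms; Ccne1 set 1441910_x_at starts at 1018 and 918 under canertinib and set 1416492_at at 306 and 177.

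Rb1, which encodes the inhibitor of the E2F factors, gave 375, 378, 184 and 183 at days 0, 2, 7 and 14 in MET_FLOX and 445, 505, 258 and 165 in MET_KO. It gave 109, 342, 82 and 104 in MET_FLOX_canertinib, and in MET_KO_canertinib 329, 268, 228 and 406. Signals were lowest in MET_FLOX_canertinib outside day 2, and in all 4 arms the day 7 array lay below those of days 0 and 2. The day 2 difference was 0.36 (SE 0.36, limma adjusted p = 0.796).

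**Figure D4:**
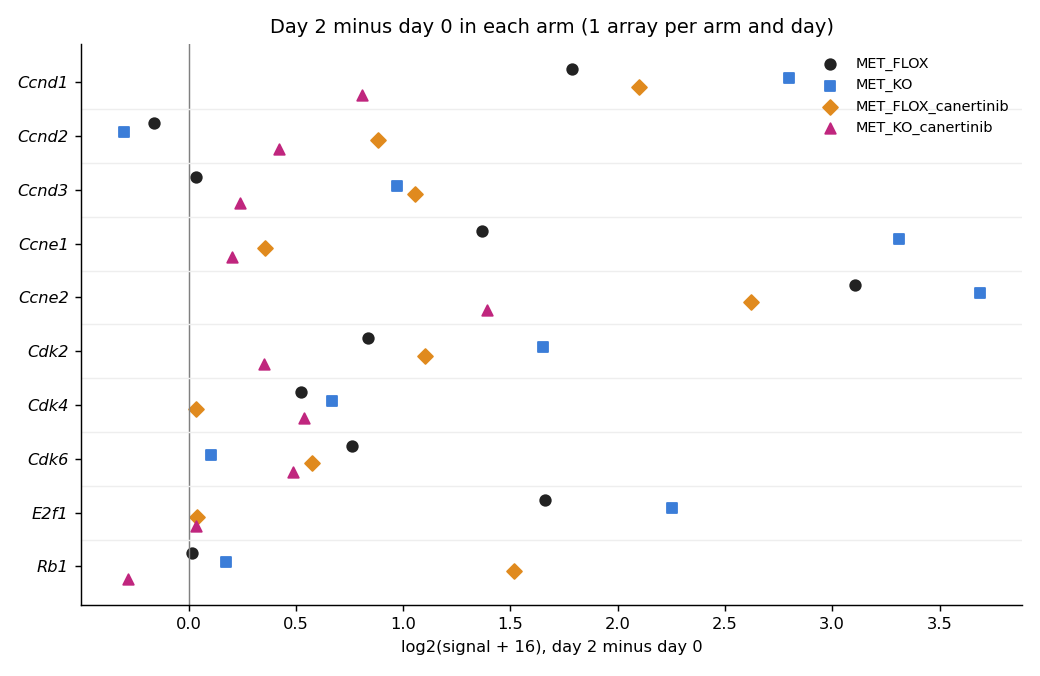
Day 2 minus day 0 on the log2(signal + 16) scale (horizontal axis) for each of the 10 genes (rows) and each arm (symbols), 1 array per arm and day. The MET_KO_canertinib symbol lies furthest left for Ccnd1, Ccne1, Ccne2, Cdk2, E2f1 and Rb1, and for E2f1 it lies beside the MET_FLOX_canertinib symbol.

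In the brightest probe set of each gene, day 2 lay above day 0 in 4 of 4 arms for 8 of the 10 genes. That held for 7 of the 9 that passed the filter, against 9.05% of all genes tested. The 2 exceptions were Ccnd2 and Rb1. In MET_FLOX the median change of the 10 genes was 0.80 and in MET_KO 1.31, with 0.97 under canertinib in MET_FLOX_canertinib and 0.39 in MET_KO_canertinib. The medians over all genes were -0.15, -0.10, 0.02 and 0.02 in that order. Changes above 1 were found for 4, 5, 5 and 1 of the 10 genes in the same order of arms, and the single gene in MET_KO_canertinib was Ccne2 (1.39).

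At day 2 the hepatocyte markers had a median difference of -0.17 from day 0 with none of 6 called. All 4 tested neutrophil markers had positive limma estimates, with a median of 0.70 and none called. Summed, the neutrophil markers went from 1924 at day 0 to 10907 at day 2 in MET_KO_canertinib, and from 1551 to 1494, 1421 to 1388 and 2426 to 2694 in MET_FLOX, MET_KO and MET_FLOX_canertinib. Their part in the members' day 2 levels was not tested.

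MET_KO_canertinib had the smallest day 2 change of the 4 arms for 6 of the 10 genes, 5 of them among the 9 tested, a position it held for 22.4% of all genes. For E2f1 the changes of the canertinib arms were all but equal (0.034 and 0.038), and in its dimmer probe set the smallest change was that of MET_FLOX_canertinib (2.33 against 2.72), so the count rests on that near tie. Ccnd1 changed there by 0.81, against 1.79 in MET_FLOX, 2.80 in MET_KO and 2.10 in MET_FLOX_canertinib. Cdk2 changed by 0.35 against 0.83, 1.65 and 1.10, and Ccne2 by 1.39 against 3.11, 3.69 and 2.62. Cdk4 (0.54) and Cdk6 (0.49) were within the range of the other arms. In the Ccnd1 probe set 1417419_at the smallest change was that of MET_KO, from 418 to 811, against 279 to 586 in MET_KO_canertinib.

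The day 2 response of MET_KO_canertinib was set against that of MET_FLOX, each taken as day 2 minus the mean of the arm's other days, in limma. The difference was -0.82 for Ccnd1 (SE 0.51, adjusted p = 0.947) and -0.67 for Cdk2 (SE 0.43, adjusted p = 0.947). It ranged from -2.31 for E2f1 to 0.36 for Ccnd2, with 7 of 9 genes negative. E2f1 was read here from its brighter set, and its dimmer set 1417878_at was not fitted in this comparison. At days 0, 2, 7 and 14 that dimmer set gave 24, 394, 30 and 50 in MET_FLOX and 20, 219, 32 and 40 in MET_KO_canertinib. No gene was called, 0% of 13575, and 678 genes had an unadjusted p under 0.05, among them 1 of these 9. At day 2 the Gapdh ratio was 0.776, 0.765, 1.11 and 1.35 in MET_FLOX, MET_KO, MET_FLOX_canertinib and MET_KO_canertinib, and the neutrophil markers were as given above. In the same comparison of day 2 responses the estimates of 6 of 6 hepatocyte markers (median 1.08) and 5 of 5 lymphocyte markers (median 0.99) were positive, with none called. The summed hepatocyte markers went from 275132 at day 0 to 436115 at day 2 in MET_KO_canertinib and were lower at day 2 in the other arms. Their part in the small day 2 changes of MET_KO_canertinib was not tested.

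For day 7 minus day 2 the estimates of all 9 tested genes were negative, with a median of -0.61 against 0.03 for all genes. Cdk2 differed by -0.95 (SE 0.23, limma adjusted p = 0.319), Ccne1 by -0.98, Rb1 by -0.996 and E2f1 by -1.28. None was called, and limma called 0% of all genes, with 900 at an unadjusted p under 0.05, 6 of them among these 9. In this comparison 7 of 7 Kupffer and macrophage markers (median 1.02) and 6 of 6 hepatocyte markers (median 0.36) had positive estimates, with none called. Summed from day 2 to day 7, the Kupffer and macrophage markers went from 20263 to 40974, 10841 to 33693 and 15838 to 60870 in MET_FLOX, MET_KO and MET_FLOX_canertinib and from 17774 to 12839 in MET_KO_canertinib. Their part in the lower day 7 estimates was not tested. Without the day 2 array of MET_KO_canertinib Cdk2 was called lower at day 7 (-1.17, adjusted p = 0.0299).

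At day 14 Ccnd1 differed from day 0 by 0.38 (SE 0.28, limma adjusted p = 0.493) and E2f1 by -1.07 (SE 0.56, limma adjusted p = 0.35). The direction for E2f1 depended on the probe set. Its dimmer set 1417878_at went up from day 0 to day 14 in MET_FLOX (24 to 50), MET_KO (23 to 64) and MET_KO_canertinib (20 to 40). It went down in MET_FLOX_canertinib (75 to 36). None of the 9 was called in that comparison, where 0.081% of all genes were. Ccnd2 had the highest estimate (0.47), given above.

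**Figure D5:**
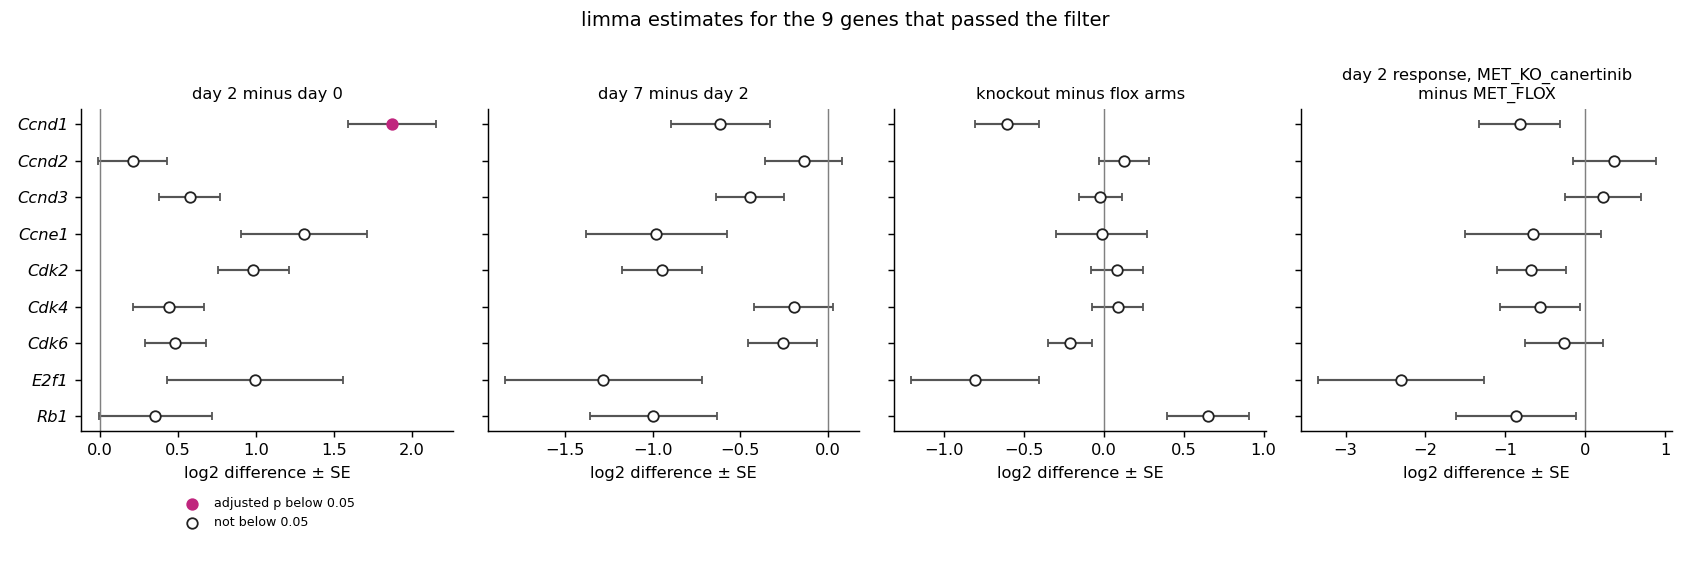
limma log2 differences (horizontal axes, points) with standard errors (bars) of the 9 tested genes for 4 comparisons; filled points have an adjusted p below 0.05. Only Ccnd1 in day 2 minus day 0 is filled, all 9 points of day 7 minus day 2 lie left of 0, and the E2f1 bar is the longest in the last panel.

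Among the genes tested Cdk2 fell in the arms with canertinib relative to those without. Its signals were lower with the drug at every day in both genotypes except day 14 of the knockout arms, where they were 679 and 607. The log2 difference was -0.51 (SE 0.16, limma adjusted p = 0.0267). As 34.6% of all genes were called in this comparison, 1 call among 9 genes is below the background share.

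The Cdk2 difference was -0.14 (adjusted p = 0.905) with the array set as a term, a fit in which the drug difference is that of day 14 alone. It was also lost without the MET_FLOX day 0 or day 2 array, the MET_FLOX_canertinib day 0 or day 2 array, the MET_KO day 2 array or the MET_KO_canertinib day 2 array, with adjusted p between 0.051 and 0.0629. Gapdh ratios were higher in every array with canertinib than in any without, as given above. Of the markers tested, limma called 5 of 6 hepatocyte genes (median 0.74), 3 of 4 neutrophil genes (median 1.09) and 3 of 5 lymphocyte genes (median 1.07) higher with the drug. So were 1 of 6 endothelial (median -0.21), 1 of 3 cholangiocyte and progenitor (0.93) and 1 of 2 pancreatic acinar genes (0.73). No Kupffer, macrophage or erythroid gene was called, and 1 of 6 stellate cell and matrix genes (median -0.27) was called lower with the drug. Array medians and lymphocyte sums were higher with it at days 0, 2 and 7. At day 14 the medians were 245.8 and 246.3 without it and 248 and 265.1 with it, and the lymphocyte sums overlapped. The part of these in the Cdk2 difference was not tested.

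None of the other 8 tested members was called, and their estimates included -0.33 for Ccnd1, 0.30 for Ccnd2, 0.69 for Ccne1, -0.34 for Cdk4 and -0.47 for Rb1. Centring each array on its median moved the median of all genes from 0.14 to -0.24. Relative to that centre Ccnd1 (-0.71, adjusted p = 0.0204), Cdk4 (-0.72, adjusted p = 0.00999) and Rb1 (-0.85, adjusted p = 0.0251) were called as well, and Ccnd2 turned to -0.082. That fit called 4 of the 9 members and 5050 of all 13575 genes. With the array set as a term Ccnd2, Cdk4 and Rb1 also changed sign (-0.10, 0.19 and 0.24). With the mean of its probe sets Ccne1 stood at -0.028. Cdk4 was also called after quantile normalization (-0.52, adjusted p = 0.0436), with the mean of its probe sets (-0.60, adjusted p = 0.0194) and without the day 14 array of MET_KO_canertinib (-0.44, adjusted p = 0.0338), and without that array so was Rb1 (-0.64, adjusted p = 0.0498). These 3 fits called 2905, 4826 and 5302 of all 13575 genes. Ccne1 was called higher without the day 2 array of MET_KO (0.89, adjusted p = 0.0264) or the day 14 array of MET_FLOX_canertinib (0.81, adjusted p = 0.0418).

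Genotype gave no call. Averaged over the drug, the knockout arms differed from the flox arms by -0.60 for Ccnd1 (SE 0.20), -0.80 for E2f1 (SE 0.40) and 0.65 for Rb1 (SE 0.26), each with a limma adjusted p of 0.9999. In this comparison 0% of all genes were called and 323 had an unadjusted p under 0.05, including 2 of these 9. The genotype by canertinib interaction ranged from -0.92 to 0.83 over the 9 genes with none called, against 0.0147% of all genes.

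With both receptors targeted, MET_KO_canertinib minus MET_FLOX was -0.93 for Ccnd1 (SE 0.28, limma adjusted p = 0.0725) and -0.43 for Cdk2 (SE 0.23, adjusted p = 0.229). None of the 9 was called, where 2.91% of all genes were. Ccnd1 was lower in MET_KO_canertinib at all 4 days in this probe set. At day 0 its other sets were higher there, at 564 against 539 for 1417420_at and 279 against 169 for 1417419_at, and the latter also at day 7 (842 against 737). The Ccnd1 difference was called after centring on array medians (-1.29, adjusted p = 0.0255) and without the day 2 array of MET_KO (adjusted p = 0.0485). Centring moved the median of all genes from 0.147 to -0.204 and called 1186 of 13575 genes. All MET_KO_canertinib arrays were in the high array set, and MET_FLOX at days 0, 2 and 7 was in the low set. Gapdh ratios were 0.776 to 0.869 in MET_FLOX and 0.950 to 1.35 in MET_KO_canertinib. The part of these in the Ccnd1 difference was not tested.

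Among the partners of these genes, the other E2F factors, their dimerisation partners and the RB relatives Rbl1 and Rbl2 had positive day 2 estimates for 10 of 11, with a median of 0.55 and none called. E2f8, a repressor of the family, gave 271, 121, 83 and 268 at day 0 and 795, 810, 985 and 331 at day 2 in MET_FLOX, MET_KO, MET_FLOX_canertinib and MET_KO_canertinib (difference 1.93, limma adjusted p = 0.203). Rbl1, which encodes the p107 pocket protein, gave 130, 121, 200 and 280 and then 810, 827, 406 and 251 (1.48, adjusted p = 0.206). In MET_KO_canertinib the signals of these genes at days 0 and 2 were close, and without its day 2 array Rbl1 was called (1.94, adjusted p = 0.0303).

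Of the CDK inhibitors 5 of 7 were tested, and Cdkn2c rose. It encodes p18, an inhibitor of CDK4 and CDK6. Its signals were 626, 410, 852 and 755 at day 0 and 1805, 2590, 2998 and 949 at day 2 in the same order of arms, a difference of 1.56 (SE 0.28, limma adjusted p = 0.0268). Cdkn1a, Cdkn1b, Cdkn1c and Cdkn2d were not called, with estimates of 0.74, 0.09, 0.20 and 0.69. The call for Cdkn2c was lost without the day 0 or day 2 array of MET_FLOX, MET_KO or MET_FLOX_canertinib, with adjusted p from 0.0766 to 0.183.

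Target genes that E2F factors are known to switch on at the start of S phase rose at day 2 in 7 of 14 tested, with a median of 1.88, where 0.413% of all genes were called. The list was chosen with results of these arrays known, so its direction is no independent evidence. Rrm2, the ribonucleotide reductase subunit, rose by 2.62 (SE 0.41, limma adjusted p = 0.0152). Mcm6 (4.59), Mcm2 (2.27) and Pcna (2.17), which unwind DNA or clamp the polymerase, rose with an adjusted p of 0.0268 each, and Mcm3, Mcm5 and Mcm7 were the other 3.

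At day 2 Rrm2 gave 6390, 10002, 5902 and 1306 in MET_FLOX, MET_KO, MET_FLOX_canertinib and MET_KO_canertinib, against 633, 636, 961 and 824 at day 0. The arm with both receptors targeted was the lowest at day 2, as for Ccnd1, Ccne2 and Cdk2. Of the 14 genes, Orc1 had a negative estimate (-0.51). The count of 7 fell to 0 without the day 0 or the day 2 array of MET_FLOX, MET_KO or MET_FLOX_canertinib, to 4 without the day 0 array of MET_KO_canertinib, and rose to 10 without the day 2 array of that arm. Of all 13575 genes, 56 were called with every array, 0 to 11 in the fits where the count was 0, and 170 where it was 10.

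Genes that activate the kinases or turn over cyclins, 10 of 11 tested, had a median of -0.03 at day 2 with none called. Cks1b, which helps the SKP2 ligase to act on CDK inhibitors, gave 733, 1275, 486 and 394 at day 0 and 4409, 6501, 1344 and 798 at day 2 (1.83, limma adjusted p = 0.173). It was called without the day 2 array of MET_KO_canertinib (2.29, adjusted p = 0.0375) or the day 14 array of that arm (adjusted p = 0.0454). Cdk7, the kinase that activates CDKs, differed by -0.56 (adjusted p = 0.382), and Myc, an inducer of Ccnd2 and Cdk4, by 1.03 (adjusted p = 0.651).

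Over the 16 arrays Ccnd1 correlated most with Ube2c (Pearson r 0.935), Shcbp1 (0.916), Cdkn2c (0.878), Spc25 (0.874) and Cdk1 (0.861) among the genes tested. Ccne2 correlated most with 4930579G24Rik (0.932), Smc4 (0.927), Psip1 (0.925), Mcm4 (0.919) and Prc1 (0.914). Among the 10 genes themselves Ccnd1 with Ccne2 (0.816) and Ccne2 with Cdk2 (0.83) were close, while Ccnd2 had r from -0.347 to 0.16 with the other 9. These correlations describe arrays that share arms, days and array sets.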

How the data were processed

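Total RNA extracted with Trizol (6 ug) was labelled and hybridised, per the labels' protocols, and the authors deposited the MAS5 signal of each probe set, a linear intensity, per the submitters' processing notes. The sources used here name no version of MAS5. Trimmed of 2% of probe sets at either end, the mean was 500 in all 16 arrays. Detection calls were not used here. The array number limits the precision.

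Of 45101 probe sets, 64 controls were left out. The platform annotation gave a single gene for 34945, several for 932 and none for 9160, and only the first kind was used. Those above their array's median in at least 4 arrays (22315) were kept, and log2(signal + 16) of the brightest per gene entered limma 3.58.1 (R 4.3.3), fitted on arm and day with an intensity trend and two-sided tests (9 residual degrees of freedom, 6 for the day 2 response). The script was tested on simulated data. No arrays held identical values.

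The members, gene lists, tests and array sets were chosen with earlier results of these data known. All 10 members are named. From each pathway list the genes called at day 2 were named (up to 4 by smallest p), or up to 2 with the smallest p, and for Ccnd1 and Ccne2 the 5 genes with the highest Pearson r. Other list genes were named after their values were seen. Alternatives were another pseudocount, no filter, centring, quantile normalization, the mean of probe sets, the array set as a term, no trend and each array left out. Fits of every probe set, and leaving out arrays in the unfiltered and pathway fits, were added after seeing the data.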

Additional observations from a re-analysis of the deposited data

Results flagged for a closer look

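Some members moved one way in both arms without canertinib and the other way in both arms with it. None of these differences was tested, and each arm has 1 array a day. Day 2 minus day 0, Ccnd2 changed by -0.16 in MET_FLOX and -0.30 in MET_KO, and by 0.88 in MET_FLOX_canertinib and 0.42 in MET_KO_canertinib. The other Ccnd2 probe sets that passed the filter did not share this split: 1434745_at changed by 0.33 in MET_FLOX, 1430127_a_at by -0.27 in MET_FLOX_canertinib and 1448229_s_at by -0.68 in MET_KO_canertinib. Day 14 minus day 7, Ccnd2 changed by 0.86 and 0.81 without the drug and by -0.0014 and -0.081 with it, in the same order. Probe set 1434745_at shared that split, and 1430127_a_at and 1448229_s_at, which went down in MET_KO, did not. Only the step without the drug crossed from the low to the high array set. Cdk4 changed from day 2 to day 7 by -0.56 and -0.51 without canertinib and by 0.28 and 0.012 with it. In the other Cdk4 probe sets the signal went down from day 2 to day 7 in a canertinib arm as well, from 552 to 406 in MET_FLOX_canertinib (1422441_x_at) and from 346 to 249 in MET_KO_canertinib (1422440_at). Rb1 changed from day 7 to day 14 by -0.0065 and -0.60 without canertinib and by 0.28 and 0.79 with it. Changes of -0.0014, -0.0065 and 0.012 have a sign but no size.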

How the results depend on the processing

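Among 38 member differences refitted under the alternatives, 862 of 894 values kept their direction and their side of the threshold, 13 lost a call, 14 gained one and 5 changed sign. Only Ccnd1 at day 2 and Cdk2 with canertinib were called in the main fit, and all 13 losses fell on them. Most of the 862 are therefore uncalled values that stayed uncalled, and the tally does not measure how stable the calls are. The sign changes, all in the canertinib comparison, were Ccnd2 at -0.082 (arrays centred), Ccnd2 at -0.10, Cdk4 at 0.19 and Rb1 at 0.24 (array set as a term) and Ccne1 at -0.028 (mean of probe sets). The number of members called at day 2 was 1, became 2 with no filter and lay between 0 and 2 with 1 array left out. Of all genes 56 of 13575 were called in the main fit and 54 of 18193 with no filter. Without the day 2 or the day 14 array of MET_KO_canertinib, which gave 2 members each, it was 170 and 95 of 13575. In the canertinib comparison it was 1, became 4 with arrays centred, 2 with quantile normalization, 2 with the mean of probe sets and 0 with the array set, and lay between 0 and 3 with 1 array left out. Of all 13575 genes, 4701 were called there in the main fit and 5050 with arrays centred. Quantile normalization called 2905, the mean of probe sets 4826, the array set 15 and the fit with 3 members 5302. For MET_KO_canertinib minus MET_FLOX the number of members called was 0, became 1 with arrays centred and lay between 0 and 1 with 1 array left out. The fits that called 1 also called 1186 genes in all (centred) and 308 (without the day 2 array of MET_KO). For day 7 minus day 2 the number of members lay between 0 and 1, and the fit with 1 called 74 genes in all. The other 5 counts of members stayed at 0. Apart from the array set, whose fit leaves the drug difference of day 14 alone, the cause was not tested. No paired analysis was possible because each arm has 1 array a day, numbered alike only by accession order; day and arm are already blocks in each fit. The day 2 response could not be fitted without the day 2 array of MET_FLOX or MET_KO_canertinib. The depth of arrays is their signal over background: the dimmer E2f1 probe set lies near the added 16 at day 0, so the size of its change is uncertain.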
